A study of Mus musculus with 16 samples.

Results

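The interferon regulatory factors (IRFs) were followed in the kidneys of mice that lack the inhibitory IgG receptor FcγRIIb, the stimulator of interferon genes (STING), or both. The family was taken as 8 genes, *Irf1*, *Irf2*, *Irf3*, *Irf4*, *Irf5*, *Irf7*, *Irf8*, and *Irf9*, and its members were the array probes whose transcript belongs to one of them. This gave 8 of the 22911 genes named on the array and 13 of its 56605 probes, with 2 probes each for *Irf1*, *Irf3*, *Irf4*, *Irf7*, and *Irf9* and 1 each for *Irf2*, *Irf5*, and *Irf8*. All 13 passed the filter on dim probes, which asked for a signal well above background on at least 4 of 16 arrays and left 35628 probes.

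RNA of the whole kidney was measured on 1-color arrays, 1 mouse per array, in 4 mice of each of 4 genotypes, all 6 months old. The wild-type (C57BL/6) and Sting-ko (C57BL/6) mice carried intact *Fcgr2b*. The Fcgr2b-ko mice, which the labels call lupus mice, and the Fcgr2b-ko, Sting-ko mice (double-deficient below) were both labelled 129/C57BL/6, so that the *Fcgr2b* deletion and the 129 background cannot be told apart in these groups. The Sting-deficient animals carried the Goldenticket (gt) allele, a functional knockout present in every cell. For the Fcgr2b-ko group the labels give no *Sting* allele, while the heading of these columns in the study's heatmap includes a gt copy. In whole-kidney RNA, fewer cells of a type and less RNA per cell cannot be told apart.

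IRFs are transcription factors that share a DNA-binding domain reading GAAA repeats. IRF3, IRF5, and IRF7 are latent in the cytoplasm and are activated by phosphorylation downstream of nucleic-acid sensors, STING and the endosomal Toll-like receptors among them, to switch on type I interferon genes. IRF9 is part of the complex ISGF3, which carries the interferon signal to the interferon-stimulated response element (ISRE). IRF1 is induced by interferon-γ, whose response element is the γ-activated site (GAS), and IRF2 competes with it at shared sites. IRF4 and IRF8 are expressed mainly in hematopoietic cells, IRF8 in macrophages, dendritic cells, and B cells, and IRF4 in activated lymphocytes and plasma cells. *Irf7* and *Irf9* are themselves interferon-stimulated genes, and a raised interferon signature is a feature of lupus.

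The promoters were read to see which members hold the letters of these interferon elements just upstream of a transcript start. The 8 members had 11 windows of 250 bases before a transcript start in RefSeq (GRCm38.p6). The GAS was searched as TTCNNNGAA, which reads the same on both strands, and the ISRE as a pair of GAAA with 2 bases of any kind between them, or its reverse complement, a pair of TTTC spaced alike. A GAS was found in 3 of the 11 member windows and in 7.02% of all 32851 windows of the same length. An ISRE was found in 1 of the 11 and in 2.98% of all. The windows that held a match are printed 5′ to 3′ on the strand of the gene, which is the plus strand in each, with the matches in capitals. The *Irf1* window (chr11:53769764-53770013) held a GAS whose first base lay 90 bases before the start. The *Irf8* window (chr8:120736108-120736357) held a GAS at 171 and another at 153 bases before the start. The *Irf2* window (chr8:46739495-46739744) held an ISRE at 241 and a GAS at 224 bases before the start.
Irf1: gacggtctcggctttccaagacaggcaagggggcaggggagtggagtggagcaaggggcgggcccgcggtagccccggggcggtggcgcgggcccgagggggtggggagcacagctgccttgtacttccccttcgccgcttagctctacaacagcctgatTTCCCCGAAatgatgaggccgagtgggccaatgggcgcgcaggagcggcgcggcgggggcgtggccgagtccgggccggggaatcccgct
Irf8: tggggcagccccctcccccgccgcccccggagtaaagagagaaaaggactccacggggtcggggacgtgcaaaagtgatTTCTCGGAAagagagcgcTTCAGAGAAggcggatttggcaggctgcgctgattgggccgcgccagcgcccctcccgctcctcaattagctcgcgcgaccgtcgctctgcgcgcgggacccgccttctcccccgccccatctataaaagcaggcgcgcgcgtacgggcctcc
Irf2: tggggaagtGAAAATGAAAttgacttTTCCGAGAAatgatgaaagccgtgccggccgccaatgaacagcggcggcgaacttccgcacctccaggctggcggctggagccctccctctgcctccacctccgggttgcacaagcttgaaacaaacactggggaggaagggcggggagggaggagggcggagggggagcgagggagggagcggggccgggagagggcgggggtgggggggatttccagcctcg
The *Irf7* window (chr7:141266425-141266674, minus strand) and those of *Irf3*, *Irf4*, *Irf5*, and *Irf9* held none of these letters, which says nothing of elements farther away or spelled otherwise. The *Irf7* window also overlaps the first exon of another *Irf7* transcript, so it does not cover the sequence upstream of that transcript.

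Levels are given as log2 of the processed signal minus the 75th percentile of the array, so that 0 is the brightness below which 75% of the probes of that array lie. A level of one probe cannot be set against that of another, because probes differ in how well they bind. Each array had 28441 to 35564 probes well above background, and no spot was saturated. *Fcgr2b* was lower in both groups that lack it, 0.25 ± 0.31 (SD, n = 4) in Fcgr2b-ko and -0.05 ± 0.39 in double-deficient mice against 1.70 ± 0.43 in wild-type mice, and 0.78 ± 0.73 in Sting-ko mice, of which replicate 4, at -0.19, lay below every Fcgr2b-ko mouse. The mRNA of *Sting1* does not check the Sting labels, since the gt allele is a functional knockout that leaves a transcript. The *Sting1* level was 1.20 ± 1.61 in Fcgr2b-ko, 0.10 ± 0.61 in double-deficient, 0.29 ± 0.49 in Sting-ko, and -0.23 ± 1.0 in wild-type mice. Adipocyte genes, scored as the mean log2 difference from the wild-type mean over 6 markers, were high in 1 wild-type (2.63), 1 Fcgr2b-ko (2.66), and 1 Sting-ko mouse (1.59), each replicate 1. In the animal labels, wild-type replicates 3 and 4, Fcgr2b-ko replicate 3 and double-deficient replicate 4, and Fcgr2b-ko replicate 4 and double-deficient replicate 3 share a first number, whose meaning the labels do not state. Over all probes the consensus correlation within that number was 0.83, and the tests here take all mice as independent except where the number is named as a block. The arrays came from 2 slides, which held 2 and 2 wild-type, 3 and 1 Fcgr2b-ko, 1 and 3 double-deficient, and 2 and 2 Sting-ko mice.

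**Figure D1:**
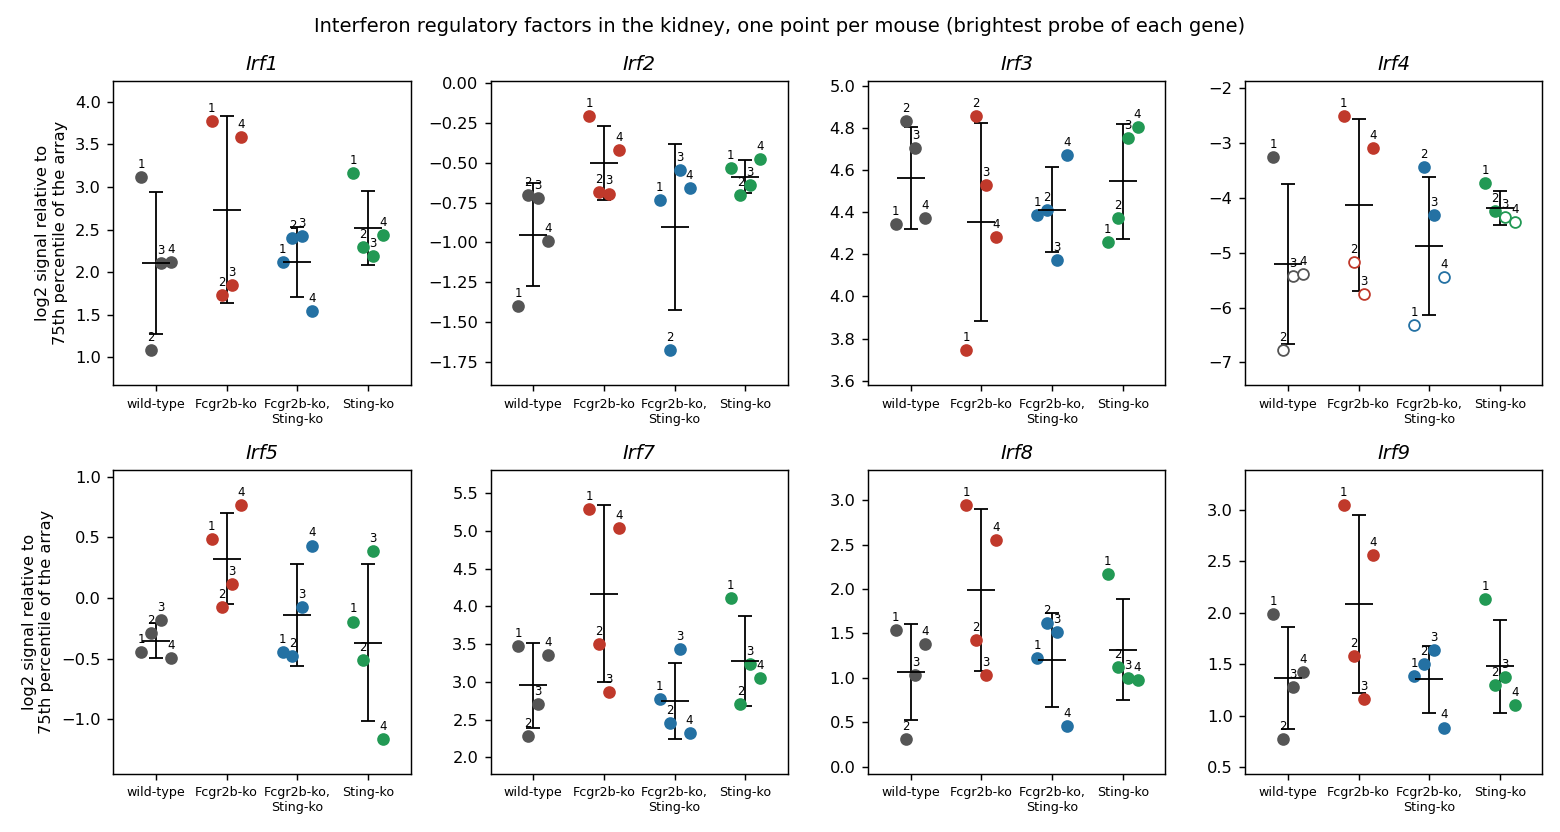
Level of the brightest probe of each member in every mouse (y axis, log2 of the processed signal over the array's 75th percentile; each panel has its own range), by genotype. Each point is 1 mouse with its replicate number, open where the probe was not well above background, and the bars are mean ± SD. In the *Irf7* panel the Fcgr2b-ko mice 1 and 4 lie at 5.29 and 5.03, above the other 14 mice.

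*Irf7*, which amplifies the type I interferon response once the first interferon has been made, had the largest mean difference between Fcgr2b-ko and wild-type mice among the brightest probes. In the wild-type mice (replicates 1 to 4) its brightest probe, A_55_P2744251, read 3.47, 2.29, 2.71, and 3.36. In the Fcgr2b-ko mice it read 5.29, 3.50, 2.86, and 5.03, and in the double-deficient mice 2.77, 2.46, 3.44, and 2.32. The Sting-ko mice read 4.11, 2.70, 3.23, and 3.05. Replicates 1 and 4 of the Fcgr2b-ko mice stood above all others, while replicate 3 lay within the wild-type range, so that the groups overlap. The second *Irf7* probe, A_51_P421876, put the same Fcgr2b-ko mice highest of that group, with 0.65 and 0.78 in replicates 1 and 4 and -0.84 and -1.30 in replicates 2 and 3.

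*Irf3*, the factor phosphorylated first after STING is engaged, had group means close to each other. Its brightest probe, A_55_P2083939, read 4.35, 4.83, 4.70, and 4.37 in wild-type mice and 3.75, 4.86, 4.53, and 4.28 in Fcgr2b-ko mice. The double-deficient mice read 4.39, 4.41, 4.18, and 4.67, and the Sting-ko mice 4.26, 4.37, 4.75, and 4.80. The lowest value of all 16 was that of Fcgr2b-ko replicate 1, the mouse with the highest *Irf7*. The group means lay between 4.35 and 4.56 with SDs of 0.20 to 0.47, and every pair of genotypes overlapped. The second *Irf3* probe, A_55_P2745005, averaged 1.11 ± 0.32 in wild-type, 0.79 ± 0.66 in Fcgr2b-ko, 1.0 ± 0.29 in double-deficient, and 0.64 ± 0.54 in Sting-ko mice.

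*Irf5*, which acts downstream of the Toll-like receptors in myeloid and B cells and is a lupus susceptibility gene in humans, was higher in every Fcgr2b-ko mouse than in any wild-type mouse. Its probe, A_51_P346668, read -0.44, -0.29, -0.18, and -0.49 in wild-type and 0.49, -0.07, 0.12, and 0.77 in Fcgr2b-ko mice. The gap between the groups, from -0.18 to -0.07, was narrow. The double-deficient mice (-0.44, -0.48, -0.07, and 0.43) and the Sting-ko mice (-0.19, -0.51, 0.39, and -1.16) overlapped both.

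*Irf9*, the DNA-binding part of ISGF3, read 1.99, 0.78, 1.28, and 1.42 in wild-type mice with its brightest probe, A_55_P2114938. The Fcgr2b-ko mice read 3.05, 1.58, 1.16, and 2.56, the double-deficient mice 1.39, 1.50, 1.64, and 0.89, and the Sting-ko mice 2.13, 1.30, 1.37, and 1.11. The 2 highest of the 16 were again Fcgr2b-ko replicates 1 and 4, and the lowest was wild-type replicate 2.

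*Irf1*, the interferon-γ-induced activator, read 3.12, 1.09, 2.11, and 2.12 in wild-type mice with its brightest probe, A_55_P2000062. The Fcgr2b-ko mice read 3.77, 1.73, 1.85, and 3.59, so that replicates 2 and 3 lay below the wild-type mean of 2.11. The double-deficient mice read 2.12, 2.40, 2.43, and 1.54, and the Sting-ko mice 3.16, 2.30, 2.19, and 2.43. *Irf2*, its competitor, read -1.40, -0.70, -0.72, and -0.99 in wild-type and -0.21, -0.68, -0.69, and -0.42 in Fcgr2b-ko mice with its probe, A_51_P316523. These groups just failed to overlap, with the nearest mice at -0.70 and -0.69. The double-deficient mice read -0.73, -1.68, -0.54, and -0.66, and the Sting-ko mice -0.53, -0.70, -0.64, and -0.48.

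*Irf8*, needed for macrophage and dendritic cell development, read 1.53, 0.32, 1.03, and 1.38 in wild-type mice with its probe, A_52_P354823. The Fcgr2b-ko mice read 2.95, 1.43, 1.03, and 2.55, the double-deficient mice 1.22, 1.61, 1.51, and 0.45, and the Sting-ko mice 2.17, 1.12, 1.0, and 0.98. The same Fcgr2b-ko mice, 1 and 4, were the highest of the 16. *Irf4*, of activated lymphocytes and plasma cells, was near the limit of the arrays. Its brightest probe, A_55_P2109445, was well above background in 1 wild-type mouse and in 2 mice of each other genotype, and its levels ran from -6.77 to -2.51. The second *Irf4* probe, A_55_P2733572, was well above background in 1 wild-type, 1 Fcgr2b-ko, and 2 Sting-ko mice and in no double-deficient mouse. Against double-deficient mice it gives only lower bounds, 0.49-fold for wild-type, 0.58-fold for Fcgr2b-ko, and 1.14-fold for Sting-ko mice. Those for wild-type and Fcgr2b-ko mice show no direction. That for Sting-ko mice is of a pair that was not fitted, on measured means of -4.72 and -6.50. Its Sting-ko mean includes mice not well above background, and the groups overlap (Sting-ko -6.87 to -2.99, double-deficient -7.26 to -5.97).

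The comparison of Fcgr2b-ko with wild-type mice asks which members differ in the lupus kidney. The brightest probes of 7 of the 8 members had a higher mean in Fcgr2b-ko mice, and *Irf3* a lower one, where 43.4% of all probes had a higher mean. The members were measured in the same mice, so these are not separate observations. The log2 differences were 1.21 (SE 0.50, 95% interval 0.14 to 2.29) for *Irf7*, 0.93 (SE 0.44) for *Irf8*, 0.72 (SE 0.39) for *Irf9*, 0.68 (SE 0.32) for *Irf5*, 0.63 (SE 0.50) for *Irf1*, 0.45 (SE 0.26) for *Irf2*, and -0.21 (SE 0.25) for *Irf3*. *Irf4* differed by 1.08 (SE 0.80), with most of its arrays not well above background. A probe was called where it differed at least 2-fold and its limma p, after Benjamini-Hochberg adjustment, was under 0.05. None of the 13 probes was called, where 0.0505% of all probes were (18 probes, a count that ran from 0 to 37 as single arrays were left out), and every member had a limma adjusted p of 1.0. Before adjustment 3 of the 13 probes, both of *Irf7* and that of *Irf5*, had a limma p under 0.05 (0.0287 and 0.0265 for *Irf7* and 0.0495 for *Irf5*), against 3.35% of all probes. The groups did not overlap for 2 of 8 members, *Irf2* and *Irf5*, both higher in Fcgr2b-ko mice, against 1.24% of all probes in either direction. That is the smallest p a two-tailed exact Mann-Whitney test of 4 against 4 can give, 0.0286 before adjustment. Only *Irf5* kept this gap under quantile normalization or normexp background correction, and no member did when arrays were scaled by their median or in the authors' table. Single arrays moved several of these values: without Fcgr2b-ko replicate 1 the difference was 0.28 for *Irf1*, 0.40 for *Irf9*, 0.61 for *Irf8*, and 0.54 for *Irf4*, and with each array left out in turn *Irf1* ran from 0.28 to 0.96 and *Irf4* from 0.54 to 1.73. On the slide with 3 Fcgr2b-ko and 2 wild-type mice, *Irf7* differed by 1.73, *Irf8* by 1.39, *Irf9* by 1.01, *Irf1* by 0.93, *Irf5* by 0.76, and *Irf2* by 0.61. On the slide with 1 Fcgr2b-ko mouse, replicate 3, and 2 wild-type mice, the differences were -0.17, -0.17, -0.19, -0.26, 0.45, and 0.16 in that order.

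Whether the loss of STING alters the members in Fcgr2b-ko mice was read from the double-deficient against the Fcgr2b-ko mice. The same 7 members had a lower mean in the double-deficient mice, where 57.5% of all probes had a higher one, and *Irf3* differed by 0.06 (SE 0.25). The log2 differences were -1.42 (SE 0.50, 95% interval -2.49 to -0.35) for *Irf7*, -0.79 (SE 0.44) for *Irf8*, -0.73 (SE 0.39) for *Irf9*, -0.61 (SE 0.50) for *Irf1*, -0.47 (SE 0.32) for *Irf5*, -0.40 (SE 0.26) for *Irf2*, and -0.75 (SE 0.80) for *Irf4*. No member probe was called (limma adjusted p = 1.0 for each), and 0.0% of all probes were. Before adjustment 2 of 13, both of *Irf7*, had a limma p under 0.05 (0.0125 and 0.0165), against 1.81% of all probes. No member separated the groups, against 1.02% of all probes. Without Fcgr2b-ko replicate 1 the differences were -0.47 for *Irf8*, -0.41 for *Irf9*, -0.27 for *Irf1*, and -0.21 for *Irf4*, and without double-deficient replicate 2 that of *Irf2* was -0.14. When mice sharing that first number were taken as a random block, *Irf7* differed by -1.17 (SE 0.30, limma adjusted p = 0.211) and no member probe was called. This contrast and that with wild-type mice share the same 4 Fcgr2b-ko mice, so the opposite signs are not separate evidence. Within slides *Irf7* differed by -1.83 (1 double-deficient mouse against 3) and by -0.12 (3 against 1), *Irf8* by -1.09 and 0.16, and *Irf9* by -1.01 and 0.18. In the same order *Irf1* differed by -0.91 and 0.27, *Irf5* by -0.84 and -0.15, and *Irf2* by -0.30 and -0.27. *Irf4*, with most arrays not well above background, differed by -2.73 and 1.35.

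The double-deficient mice lay close to wild-type mice in every member. The differences ran from -0.21 (*Irf7*, 95% interval -1.28 to 0.86) to 0.33 (*Irf4*, -1.38 to 2.04), and the interval of *Irf3*, -0.69 to 0.39, was among the narrowest. The intervals of *Irf9* (-0.85 to 0.82) and *Irf1* (-1.04 to 1.07) still hold differences of the size seen between Fcgr2b-ko and wild-type mice, so that likeness is not shown. No member was called (limma adjusted p = 1.0 for each), 0 of 13 probes had an unadjusted limma p under 0.05 against 0.424% of all probes, and no member separated the groups, against 0.547%. The second *Irf4* probe, at -0.57, had the opposite sign to the brightest.

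Loss of STING on intact *Fcgr2b* was read from Sting-ko against wild-type mice. The differences were 1.02 (SE 0.80) for *Irf4*, 0.41 (SE 0.50) for *Irf1*, 0.37 (SE 0.26) for *Irf2*, 0.32 (SE 0.50) for *Irf7*, 0.25 (SE 0.44) for *Irf8*, and 0.11 (SE 0.39) for *Irf9*, while *Irf3* and *Irf5* both differed by -0.02. The second *Irf3* probe differed by -0.47 (SE 0.34). No member probe was called, with limma adjusted p of 0.732 to 0.988 over the 13 probes. No probe had an unadjusted limma p under 0.05, against 3.76% of all, and no member separated the groups, against 2.04%. The second *Irf7* probe, at -0.03, had the opposite sign to the brightest. The difference between the effects of STING loss with and without *Fcgr2b* was -1.74 for *Irf7* (SE 0.71, 95% interval -3.25 to -0.23, limma adjusted p = 0.661), and its unadjusted p of 0.027 was the only one under 0.05 among 13 member probes, against 6.27% of all probes. It was -1.27 with the second *Irf7* probe (limma adjusted p = 0.661), and for *Irf3* 0.08 with the brightest and 0.68 with the second probe. No member probe was called for this difference, and 0.0% of all probes were. Neither the double-deficient nor the Fcgr2b-ko mice were separated from the Sting-ko mice by any member, against 2.13% and 1.04% of all probes.

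**Figure D2:**
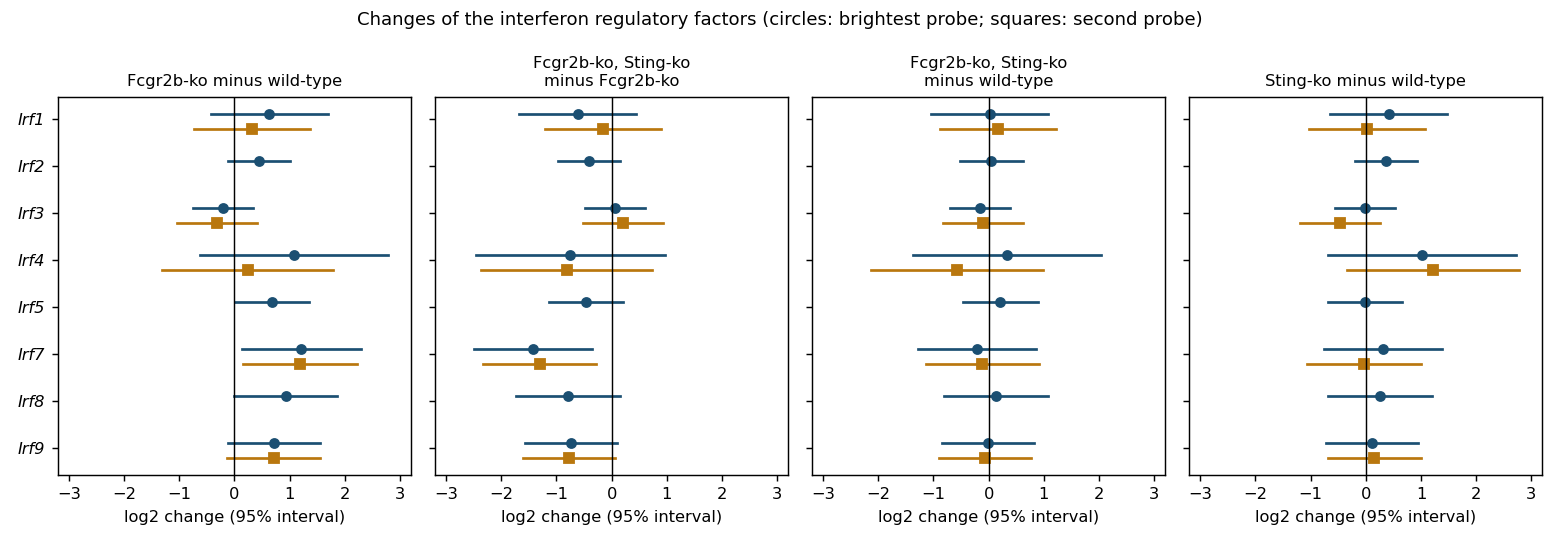
Log2 difference between genotypes of each member (x axis, with its 95% interval from limma) for the brightest probe (blue circles) and the second probe (orange squares). The intervals of both *Irf7* probes lie off 0 in the first and second panels, at 1.21 and -1.42 for the brightest, and that of *Irf5*, at 0.68, lies just off 0 in the first. No interval of the other panels lies off 0.

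The split among Fcgr2b-ko mice ran through several members at once. Relative to the wild-type mean, the average of the 8 brightest probes was 1.38 and 1.22 in Fcgr2b-ko replicates 1 and 4 and 0.20 and -0.05 in replicates 2 and 3. It ran from -0.50 to 0.48 in wild-type, from -0.17 to 0.34 in double-deficient, and from 0.09 to 0.73 in Sting-ko mice. Replicates 2 and 3 therefore fell within the wild-type range. Without replicate 1 the *Irf7* difference from wild-type mice was 0.84, and without replicate 3 it was 1.65.

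**Figure D3:**
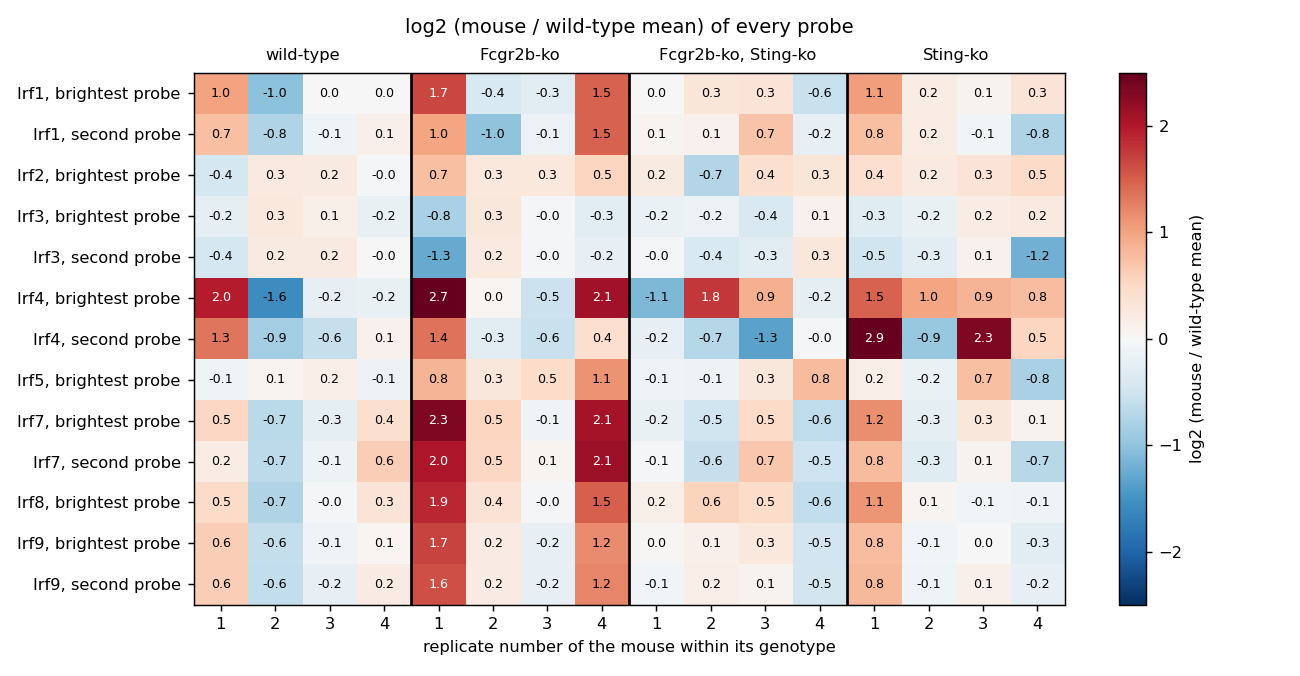
Log2 of each mouse over the wild-type mean (color and number in each cell) for all 13 probes, with mice in columns by genotype and replicate. Fcgr2b-ko columns 1 and 4 are high in both *Irf7*, both *Irf9*, both *Irf1*, and the *Irf8* probe, and columns 2 and 3 lie lower in each of these.

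To ask which members vary together between mice of one genotype, genotype means were removed and the brightest probes were correlated over the 16 mice. Of 28 pairs, 15 had an adjusted permutation p under 0.05 (100000 permutations within genotypes, two-sided, Benjamini-Hochberg over the 28). The 10 positive pairs were all those among *Irf1*, *Irf4*, *Irf7*, *Irf8*, and *Irf9*, with Pearson r of 0.72 to 0.97. The closest was *Irf8* with *Irf9* (r = 0.97, Spearman rho = 0.98, permutation p = 2.0e-05, adjusted permutation p = 0.00056), and r was 0.96 without the 2 mice farthest from the median. *Irf7* with *Irf9* followed that pattern (r = 0.94, rho = 0.92, adjusted permutation p = 0.00056, and 0.89 without the 2 farthest mice). These 10 stayed positive without the Fcgr2b-ko mice (r of 0.48 to 0.94 in 12 mice), within either slide (0.78 to 0.99 and 0.60 to 0.95, 8 mice each), and without the 3 arrays high in adipocyte genes (0.62 to 0.96), checks added after seeing the data. All 10 kept an adjusted permutation p under 0.05 under quantile normalization and 9 did when arrays were scaled by their median, where *Irf4* with *Irf7* had 0.1. The pairs with *Irf4* rest on a probe that was well above background in only 1 wild-type mouse and 2 mice of each other genotype. Most of its values are therefore readings near background. Because every pair shares its mice and arrays, the pairs are not independent of each other. How many pairs of other probes would pass the same test was not computed, so the count is not shown to be particular to this family.

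*Irf3* ran the other way. Its r with *Irf1*, *Irf4*, *Irf7*, *Irf8*, and *Irf9* was -0.84 to -0.67, and -0.82 to -0.57 without the 2 farthest mice. The sign held within both slides, but the adjusted permutation p was under 0.05 for only 2 of these 5 pairs under median scaling (r of -0.79 to -0.54) and for 0 under quantile normalization (-0.56 to -0.37). *Irf2* and *Irf5* formed no pair under 0.05, with r of -0.31 to 0.33 in their 13 pairs, except that *Irf2* with *Irf5* reached r = 0.59 (adjusted permutation p = 0.0119) under median scaling. These r values changed with the mice used. *Irf2* with *Irf4* was 0.33 without the 2 farthest mice and -0.71 without the Fcgr2b-ko mice. The 13 pairs ran from -0.48 to 0.68 on slide 1 and from -0.37 to 0.34 on slide 2. The 2 probes of a gene followed each other for *Irf9* (r = 0.99), *Irf7* (0.95), and *Irf1* (0.88), with adjusted permutation p of 1.0e-04, 0.0002, and 0.00275 over 5 genes. For *Irf3* (0.63) and *Irf4* (0.43) that p was 0.0522 in both, and r dropped to 0.30 and 0.19 without the 2 farthest mice.

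**Figure D4:**
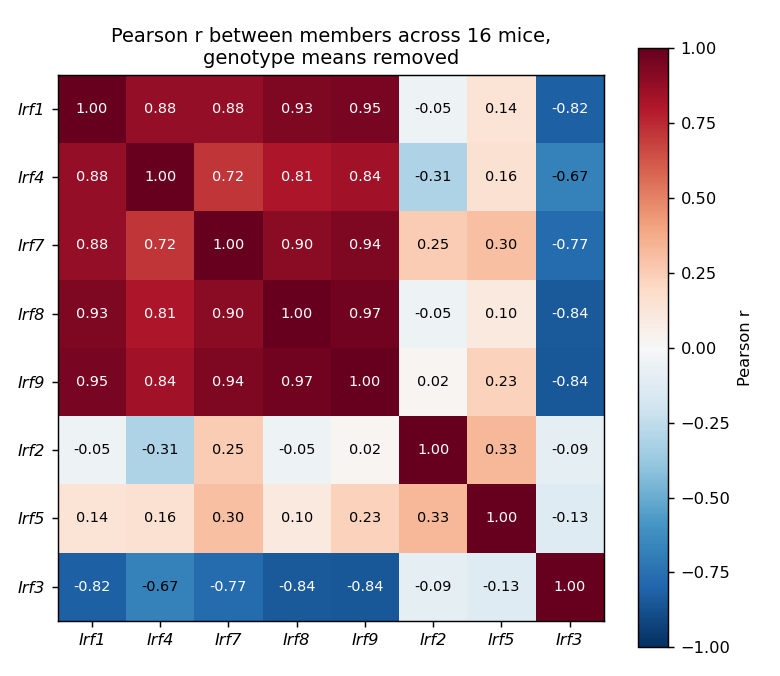
Pearson r between the brightest probes of each pair of members across 16 mice after genotype means were removed (color scale from -1 to 1). *Irf1*, *Irf4*, *Irf7*, *Irf8*, and *Irf9* form a positive square of 0.72 to 0.97, and the *Irf3* row is negative against each of them. Most values of the *Irf4* probe were not well above background.

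The genes most like each member over the 16 arrays, among 13830 genes well above background on all, are given as a description with genotype differences left in. *Irf7* was closest to *Isg15*, an interferon-induced ubiquitin-like protein (r = 0.98), and to the oligoadenylate synthetases *Oas1a* (0.97) and *Oas1f* (0.97). *Irf9* was closest to *Usp18*, which removes ISG15 from proteins (0.98), *Bst2* (0.97), and the immunoproteasome subunit *Psmb8* (0.97). *Irf8* was closest to *Gpx7* (0.98), *Usp18* (0.97), and *Plbd1* (0.96), and *Irf1* to *Parp14* (0.98), *Mcm3* (0.97), and *H2-M3* (0.97). *Irf5* had *Plod1* (0.90), *Fkbp1b* (0.89), and *Ccdc71l* (0.85), and *Irf2* had *Phc2*, *Rela*, and *Bbc3*, at 0.91, 0.91, and 0.90. *Irf3* was nearest to *1700037C18Rik* (0.95), *AA543401* (0.94), and *Tprn* (0.94), and *Irf4* to *Apold1*, *Ms4a4b*, and *Apol10b*, each at 0.92.

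The sensors and kinases upstream of IRF3, IRF5, and IRF7 were measured for 20 of 20 genes. Between Fcgr2b-ko and wild-type mice, 13 had a higher and 7 a lower mean, none was called, and the median log2 difference was 0.26, beside -0.06 over all probes. The largest differences were *Sting1* (1.42, SE 0.66), *Unc93b1*, which carries endosomal Toll-like receptors to their compartment (1.38, SE 0.47), *Ikbke*, a kinase of IRF3 and IRF7 (1.26, SE 0.47), and *Cgas*, the DNA sensor that feeds STING (1.25, SE 0.67). *Ikbke* was dim, with means of -4.39 in wild-type and -3.13 in Fcgr2b-ko mice. The lowest signal well above background ran from -5.26 to -4.00 between arrays. *Unc93b1* averaged 0.96 ± 0.45 in wild-type, 2.34 ± 1.23 in Fcgr2b-ko, 1.20 ± 0.26 in double-deficient, and 1.27 ± 0.47 in Sting-ko mice. In double-deficient against Fcgr2b-ko mice 13 of the 20 had a lower mean (median -0.26, all probes 0.06), and none was called. In Sting-ko against wild-type mice 7 of the 20 had a higher mean (median -0.09), with none called. Relative to the wild-type mean, the average of the 20 was 0.71, 0.11, 0.05, and 0.50 in Fcgr2b-ko replicates 1 to 4. Of all probes, 43.4% had a higher mean in Fcgr2b-ko than in wild-type mice, and 57.5% in double-deficient than in Fcgr2b-ko mice. For Sting-ko against wild-type mice the share was 50.1%. These shares are the background for the gene lists below as well. The genes of a list were measured in the same mice, so their counts are not separate observations.

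Partners and regulators of IRFs on DNA were measured for 16 of 16 genes. Of these 14 had a higher mean in Fcgr2b-ko than in wild-type mice (median 0.59), and 16 a lower mean in double-deficient than in Fcgr2b-ko mice (median -0.49), with none called in either. In Sting-ko against wild-type mice 11 of the 16 had a higher mean (median 0.38), with none called. Relative to the wild-type mean, the average of the 16 was 1.56, -0.10, 0.16, and 0.97 in Fcgr2b-ko replicates 1 to 4. It ran from -0.34 to 0.39 in wild-type and from 0.11 to 0.60 in Sting-ko mice. *Batf*, the AP-1 factor that binds with IRF4 and IRF8, differed by 2.51 (SE 0.78), from -3.08 ± 1.11 in wild-type to -0.57 ± 1.88 in Fcgr2b-ko mice, and lay at -2.12 ± 0.60 in double-deficient mice. *Ikzf1* differed by 1.18 (SE 0.70) and *Spib* by 1.04 (SE 0.56). *Spi1*, which encodes PU.1, an IRF4 and IRF8 partner in myeloid and B cells, was not well above background in any wild-type mouse and was so in 3 of 4 Fcgr2b-ko mice. This gives only a bound, at least 1.48-fold higher for the Fcgr2b-ko mean (limma adjusted p = 1.0), on measured means of -5.82 and -4.19. That Fcgr2b-ko mean (SD 1.53) includes a mouse not well above background, so the bound concerns the means only. Such bounds set the mean of the brighter group against, in each array of the dimmer, the higher of the probe's own signal and the lowest signal well above background.

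Genes that ISGF3, IRF3, or IRF7 act on were measured for 19 of 22, *Ifnb1* and *Ifna4* being among the 3 that did not pass the filter on dim probes. All 19 had a higher mean in Fcgr2b-ko than in wild-type mice (median 0.94, lowest 0.08), and 18 a lower mean in double-deficient than in Fcgr2b-ko mice (median -0.87). In Sting-ko mice, too, 18 of the 19 had a higher mean than in wild-type mice (median 0.54, beside 0.0015 over all probes). None was called. *Oas2* averaged -2.16 ± 1.45 in wild-type, 0.11 ± 1.93 in Fcgr2b-ko, -1.79 ± 0.57 in double-deficient, and -0.84 ± 0.73 in Sting-ko mice. Between Fcgr2b-ko and wild-type mice *Oas1a* differed by 1.86 (SE 0.60), *Oasl2* by 1.60 (SE 0.62), and the chemokine *Ccl5* by 1.49 (SE 0.67). Relative to the wild-type mean, the average of the 19 was 2.4, 0.08, -0.28, and 1.8 in Fcgr2b-ko replicates 1 to 4. It ran from -0.97 to 1.06 in wild-type, from -0.57 to 0.42 in double-deficient, and from 0.05 to 1.40 in Sting-ko mice. Genes that IRF1 or IRF8 act on in the interferon-γ response were measured for 17 of 18, of which 15 had a higher mean in Fcgr2b-ko than in wild-type mice (median 0.70) and 16 a lower mean in double-deficient than in Fcgr2b-ko mice (median -0.80), with none called. In Sting-ko against wild-type mice 11 of the 17 had a higher mean (median 0.28), with none called. The largest differences between Fcgr2b-ko and wild-type mice were *Cybb*, the phagocyte oxidase subunit (2.09, SE 0.77), *Casp1* (1.77, SE 0.83), *Nlrc5* (1.09, SE 0.96), and *Ciita* (1.03, SE 0.68), the last pair being activators of MHC class I and class II genes. The average of the 17 was 2.23, -0.31, -0.47, and 1.50 in Fcgr2b-ko replicates 1 to 4. It ran from -0.98 to 1.20 in wild-type, from -0.78 to 0.72 in double-deficient, and from -0.16 to 1.15 in Sting-ko mice.

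Scores of macrophage and monocyte, T cell, dendritic cell, and neutrophil markers were higher in Fcgr2b-ko replicates 1 and 4 than in replicates 2 and 3. The study states that its kidneys were not perfused. The mean log2 difference from wild-type over 12 macrophage and monocyte markers was 2.80, 0.68, 0.64, and 2.47 in Fcgr2b-ko replicates 1 to 4, -0.59 to 1.16 in wild-type, 0.18 to 1.35 in double-deficient, and -0.08 to 1.20 in Sting-ko mice, with 10 of the 12 higher in Fcgr2b-ko than in wild-type mice and none called. Only Fcgr2b-ko replicates 1 and 4 lay above the range of the other genotypes. The score was 1.95, -0.08, -0.41, and 1.29 over 10 T cell markers, 1.92, -0.79, -0.41, and 1.37 over 7 of 8 dendritic cell markers, and 2.62, -0.39, 0.71, and 1.74 over 5 of 8 neutrophil markers in the same 4 Fcgr2b-ko mice, where the highest of the other 12 mice read 0.92, 1.45, and 1.51. Over 7 of 10 B and plasma cell markers it was 1.09, -0.17, -0.37, and 0.35, where 1 wild-type mouse reached 1.53. Over 6 plasmacytoid dendritic cell markers, of which *Bst2* is also an interferon target and *Klk1* a kidney gene, it lay between -0.11 and 0.23 in these mice. Proximal tubule markers, 8 of 8 measured, read -1.83, 0.42, 0.17, and -0.43 in them, lowest in replicate 1, where *Irf3* was lowest and adipocyte genes were high. Podocyte markers (6 of 6) read 1.55, 0.27, 0.53, and 1.05 in the Fcgr2b-ko mice and -0.66 to 1.20 in the others, and distal nephron markers (8 of 8) read -1.26 to 0.40 and -0.87 to 0.53. Red cell markers (5 of 8) lay between -0.74 and 0.86 and adrenal cortex markers (3 of 5) between -0.78 and 0.35 over all 16 mice. *Cd79a*, *Blk*, and *Tnfrsf17* of B and plasma cells and *Xcr1* of dendritic cells did not pass the filter on dim probes. Every marker scored was well above background in at least 1 mouse of each genotype, and the part of these cells in the IRF levels was not tested. Without the 3 arrays high in adipocyte genes, a choice made after seeing the data, *Irf7* differed by 1.01 between Fcgr2b-ko and wild-type mice and by -1.05 between double-deficient and Fcgr2b-ko mice.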

How the data were processed

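Total RNA of whole kidneys (100 ng) was labelled with Cy3 and hybridized by the authors, 1 mouse per array, and genotype and replicate number came from the labels. The authors deposited scanner files from Agilent Feature Extraction 11.0 (the submitters' processing notes), whose processed intensity is background-subtracted and not scaled between arrays. A second deposited file, of log2 values, has 1 column per mouse with medians of 4.93 to 5.54. How it was made is not given in the sources used here, arrays with one replicate number share a distribution in it, and each of the 16 columns was closest to its own array.

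Here, control and outlier spots were left out (62976 spots, 59305 not control), spots of a probe were averaged, and each array's 75th percentile was subtracted from its log2 intensity (Python 3.11.15, pandas 2.3.3, numpy 2.4.6, scipy 1.17.1). Probes that passed the filter, at least 4 of 16 arrays with a signal well above background, entered lmFit and eBayes of limma 3.58.1 (statmod 1.5.0, R 4.3.3), with all 16 arrays and 1 mean for each genotype. Calls needed at least 2-fold and, over 35628 probes, a Benjamini-Hochberg value under 0.05. The number of arrays, 4 per genotype, limits the precision. Probes were named by transcript through a RefSeq table (GRCm38.p6), used for names and promoter sequences only, since the array was designed on another build. Of tested genes with several probes, the one with the highest mean signal stands for the gene. Levels shown for marker lists are the mean over the measured genes of the log2 difference from the wild-type mean. The limma p-values judge each difference against a spread between mice that is shared by the genotypes and moderated over all probes. They take the mice as independent except where a block is named. The permutation p-values refer to mice shuffled within genotypes.

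The members, gene lists, and tests were chosen with earlier results of these data known. Named were all member probes, up to 4 genes of each pathway list with the largest difference between Fcgr2b-ko and wild-type mice, and the 3 genes most like each member. The marker lists covered B and plasma cells, T cells, macrophages and monocytes, dendritic cells, plasmacytoid dendritic cells, neutrophils, red cells, proximal tubule, podocytes, distal nephron, adipocytes, and adrenal cortex. Alternatives were normexp (offset 50, on the median spot signal, as the files give no mean), quantile normalization, median scaling, the authors' table, no filter and a filter on all 16 arrays, only the groups compared, robust eBayes with a trend, the methods' exact Mann-Whitney test (raw and adjusted), calls without the fold limit, the median over probes of one gene, slide, replicate number, and first number of the animal label as blocks, each array left out, and, added after seeing the data, the arrays high in adipocyte genes left out. The fit and the correlation test were tested on simulated data. Plots were drawn with matplotlib 3.10.9.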

Additional observations from a re-analysis of the deposited data

Results flagged for a closer look

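The *Irf2* level of double-deficient replicate 2 was -1.68, apart from the other 3 double-deficient mice at -0.73 to -0.54. The *Irf8* level of Sting-ko replicate 1 was 2.17, apart from the other 3 Sting-ko mice at 0.98 to 1.12. Both gaps exceeded Dixon's 95% critical value for 4 samples, in 52 groups checked, and chance alone sets about 1 in 20 groups apart.

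For the brightest probe of *Irf1* and the probe of *Irf2*, every double-deficient mouse lay below the Fcgr2b-ko mean and every Sting-ko mouse above the wild-type mean. The *Irf1* values were -1.19 to -0.31 and 0.08 to 1.05, and the difference of the effects was -1.02 (limma adjusted p = 0.669). The second *Irf1* probe lacked this pattern, and its difference was -0.18. The *Irf2* values were -1.18 to -0.04 and 0.25 to 0.48, and the difference was -0.77 (limma adjusted p = 0.661). Neither difference was called.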

How the results depend on the processing

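No member probe was called in any of the 5 contrasts under the alternatives that were run on it. The Mann-Whitney test has no form for the difference of effects, the filter on all 16 arrays left 10 of the 13 probes, and the median over probes was run per gene. Among adjusted values the smallest adjusted p of a member's brightest probe was 0.211, for *Irf7* in double-deficient against Fcgr2b-ko mice with the animal label number as a block. In Fcgr2b-ko against wild-type mice no member changed sign in 255 alternative values. Many of these could not differ from the main value. Leaving out an array of another genotype, or changing only the test or the filter, does not move the difference. Within the slide with 1 Fcgr2b-ko mouse the sign was reversed for *Irf7* (-0.17), *Irf8* (-0.17), *Irf9* (-0.19), *Irf1* (-0.26), and *Irf4* (-0.34). It was kept there for *Irf2* (0.16), *Irf5* (0.45), and *Irf3* (-0.0077). The replicate numbers did not pair the mice: 24 same-numbered pairs had r of -0.60 to 0.69, 11 above 0.1, and 5 of 16 mice were closest to a mouse of their own number. The first number of the animal label is another number, with a consensus correlation of 0.83. With the replicate block 0 member probes were called, and 16 of all probes in Fcgr2b-ko against wild-type mice, against 18 without it. That count was 5 under normexp, 7 in the authors' table, 3 with the animal label number as a block, 22 under median scaling, 144 by the unadjusted Mann-Whitney test with the fold limit (0 after adjustment), 9 without the adipocyte-high arrays, and 0 with a filter on all 16 arrays or only the groups compared. The members separating Fcgr2b-ko from wild-type mice were 2, against 1 under normexp and 1 under quantile normalization, and 0 under median scaling and 0 in the authors' table. Correlated pairs numbered 15, 12 under median scaling, and 10 under quantile normalization.

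The cause of the reversals below was not tested. They include *Irf4* (0.33) in double-deficient against wild-type and *Irf8* (0.25) in Sting-ko against wild-type mice. In double-deficient against Fcgr2b-ko mice, *Irf3* was -0.0026 under quantile normalization, -0.0034 in the authors' table, -0.030 with the slide as a block, and -0.15 without the adipocyte-high arrays. In double-deficient against wild-type mice, *Irf1* was -0.10 under median scaling and -0.0024 with the animal number block, *Irf2* -0.067 under median scaling and -0.10 without the adipocyte-high arrays, and *Irf4* -0.013 under normexp and -0.12 over its probes. *Irf9* there was 0.0043 under quantile normalization, 0.014 in the authors' table, 0.091 with slide, 0.076 with the animal number, and 0.19 without the adipocyte-high arrays. In Sting-ko against wild-type mice, *Irf3* was 0.21, 0.20, and 0.0053 under quantile normalization, in the authors' table, and without the adipocyte-high arrays, *Irf5* 0.018 under normexp, and *Irf9* -0.13 under median scaling. For the difference of effects, *Irf3* was -0.21, -0.20, -0.012, and -0.15 under quantile normalization, in the authors' table, with slide, and without the adipocyte-high arrays.

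With each array left out in turn, double-deficient against Fcgr2b-ko ran from -0.15 to 0.23 for *Irf3*. Double-deficient against wild-type ran from -0.32 to 0.35 for *Irf1*, -0.10 to 0.31 for *Irf2*, -0.19 to 0.98 for *Irf4*, -0.11 to 0.39 for *Irf8*, and -0.21 to 0.19 for *Irf9*. Sting-ko against wild-type ran from -0.10 to 0.078 for *Irf3*, -0.27 to 0.25 for *Irf5*, -0.029 to 0.41 for *Irf8*, and -0.11 to 0.32 for *Irf9*, and the difference of effects from -0.13 to 0.24 for *Irf3*. Signal over background limits *Irf4* most.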
